A study of Mus musculus with 3 samples.

Results

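Krt7, Krt8, Krt18 and Krt19 encode the keratins of simple epithelium, and they were described here by their symbols, as 4 of the 32287 features counted in a single-cell RNA matrix of mouse PC cells. PC cells grew out of esophageal organoids from mice with floxed Trp53 alleles. Trp53, the gene of the tumour suppressor p53, was deleted with an adenovirus carrying Cre recombinase and EGFP, and Cdkn2a, which encodes cell cycle inhibitors, was knocked out with CRISPR/Cas9. The cells expressed Cas9 constitutively, were transfected with a library of genetic barcodes, passaged 3 times and sorted for viability and red fluorescence. The labels give the tissue as esophageal cancer, but the cells come from an engineered culture, and the labels do not say how many animals or clones it holds. The matrix is 1 sample without a replicate, so no difference below was set against the spread between cultures and no test between groups was run.

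Of 18116 deposited barcodes, 14925 had at least 500 genes, at least 1000 unique molecular identifiers (UMIs, each standing for 1 captured RNA molecule) and at most 20% mitochondrial UMIs. These kept cells held 45443280 UMIs, with a median of 2955 per cell and a range from 1000 to 23453. Levels are given as CPM, the UMIs of a gene per 1000000 UMIs of all genes, summed over a set of cells. The kit counts 1 end of each molecule, so a CPM is a level per molecule and not per base of transcript length. Intervals in parentheses are exact 95% intervals, Poisson for CPM and binomial (Clopper-Pearson) for shares of cells, and they cover counting error only. Shares of cells with a UMI were taken after each cell was thinned at random to 1500 UMIs, which used 13281 cells and left out 1644 shallower ones.

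Keratins are intermediate filament proteins that work as pairs of a type II and a type I chain. KRT8 (type II) with KRT18 (type I) is the pair of simple, single-layered epithelia, and it often comes with KRT7 (type II) and KRT19 (type I), which mark ducts, glands and the transitional epithelium where squamous and columnar tissue meet. The stratified squamous epithelium of the esophagus is instead built in its basal layer on KRT5 (type II) and KRT14 (type I), and simple keratins are known from embryonic, transitional and transformed esophageal epithelium.

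In GENCODE M21 on GRCm38, Krt7 (ENSMUSG00000023039), Krt8 (ENSMUSG00000049382) and Krt18 (ENSMUSG00000023043) are protein-coding genes on chromosome 15. Krt7 lies at 101411043 to 101430313 on the plus strand, Krt8 at 101996698 to 102004482 on the minus strand and Krt18 at 102028180 to 102032027 on the plus strand. Krt8 and Krt18 are 23697 bases apart and are transcribed away from each other, Krt18 being the type I gene that lies among type II genes. Krt19 (ENSMUSG00000020911) is on chromosome 11 at 100140810 to 100148665 on the minus strand, 54496 bases from Krt14. A pseudogene of Krt8, Krt8-ps, is annotated, and whether it took or gave reads was not tested.

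Krt8 and Krt18 were the pair found together in the most thinned cells, while each had a larger excess over its share with Krt19. Krt7 went with both less strongly. The bases upstream of the RefSeq start of Krt8, Krt18 and Krt7 are shown from RefSeq promoters on GRCm38.p6. An entry was found for these 3 of the 4 genes, and the stretches hold no base that GENCODE annotates as untranslated region. The Krt7 stretch ends just before its main protein-coding transcript but lies inside the GENCODE gene, where other transcripts begin earlier, and it overlaps an exon of a transcript without annotated coding sequence. Capitals mark GGGCGG, the GC box, which on the other strand reads CCGCCC. They also mark AGGTCA, the hexamer known from nuclear receptor sites, which on the other strand reads TGACCT and was added to the search after the sequences had been seen.
Krt8, chr15:102004483-102004592, minus strand: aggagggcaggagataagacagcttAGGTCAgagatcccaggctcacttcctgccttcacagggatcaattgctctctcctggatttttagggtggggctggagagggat
Krt18, chr15:102027966-102028179, plus strand: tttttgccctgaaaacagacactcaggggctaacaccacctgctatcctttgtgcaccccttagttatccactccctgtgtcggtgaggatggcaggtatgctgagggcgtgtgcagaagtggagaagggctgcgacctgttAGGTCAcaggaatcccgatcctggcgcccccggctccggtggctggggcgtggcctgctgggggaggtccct
Krt7, chr15:101412153-101412401, plus strand: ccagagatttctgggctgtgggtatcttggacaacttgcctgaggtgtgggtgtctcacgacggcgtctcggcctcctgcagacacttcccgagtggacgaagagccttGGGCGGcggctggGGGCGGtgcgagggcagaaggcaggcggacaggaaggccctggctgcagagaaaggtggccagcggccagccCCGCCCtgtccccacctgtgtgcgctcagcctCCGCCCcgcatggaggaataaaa
The Krt7 stretch of 249 bases held GGGCGG 4 times on either strand and AGGTCA 0 times. The Krt8 stretch of 110 bases and the Krt18 stretch of 214 bases each held AGGTCA 1 time and GGGCGG 0 times. Over all 32851 RefSeq promoters cut to the same lengths, GGGCGG was in 32.6% at 249 bases, and AGGTCA was in 6.36% at 110 bases and 12.3% at 214 bases. The CCAAT box reads ATTGG on the other strand, and TGANTCA, the AP-1 motif, reads the same on both strands. Neither motif was in any of the 3 stretches. They were in 33.8% and 6.74% of promoters at 249 bases, 30.3% and 5.95% at 214 bases, and 14.9% and 2.79% at 110 bases. The longest run shared on the same strand was 8 bases for each pair of the 3 stretches, Krt7 included. These are letter matches and show no binding.

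All 4 genes were transcribed in the culture, below the basal keratins Krt5 and Krt14 but above the basal keratin Krt15, which stood at 3.87 CPM. The type I gene Krt18 was highest with 9729 UMIs and 214 CPM (210 to 218), and its type II partner Krt8 had 5546 UMIs and 122 CPM (119 to 125). Krt7 stood at 90.3 CPM (87.5 to 93.1) from 4102 UMIs and Krt19 at 79.8 CPM (77.2 to 82.4) from 3626 UMIs. None of these intervals overlapped, so Krt18, Krt8, Krt7 and Krt19 followed in this order beyond counting error. The order of Krt7 and Krt19 did not hold with at least 1000 genes and 2000 UMIs per cell, at 82.8 CPM (80.01 to 85.65) for Krt7 and 83.9 CPM (81.1 to 86.8) for Krt19. Without the 121 cells of cluster 8, described below, their intervals also overlapped, at 82.7 and 79.1 CPM. For comparison, Krt14 stood at 1145 CPM, Krt17, a stress-associated keratin, at 1397 CPM, Krt5 at 628 CPM and Krt6a at 370 CPM. The 4 simple keratins together made up 12.2% of the 188062 keratin UMIs.

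A Krt18 UMI was found in 23.2% of thinned cells (22.4% to 23.9%), a Krt8 UMI in 13.9% (13.3% to 14.5%), a Krt7 UMI in 10.7% (10.2% to 11.2%) and a Krt19 UMI in 8.80% (8.33% to 9.30%). Without thinning the shares were 36.4%, 22.8%, 16.2% and 14.6% in the same order. In the mesenchymal-like cells described below, a cell type in which these genes are usually low, the thinned shares were 9.12%, 1.56%, 1.147% and 0.574%. Their median was 3357 UMIs, so depth was not lower there. Most positive cells held a single molecule: of the 2411 unthinned cells with Krt7, 1471 held 1 UMI, 854 held 2 to 4 and 86 held at least 5. For Krt19 the same counts were 1483, 602 and 96, for Krt8 2265, 1038 and 106, and for Krt18 3244, 1937 and 252. The cell with most Krt18 UMIs held 44, and the highest counts were 20 for Krt19, 15 for Krt8 and 13 for Krt7.

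The 4 genes were spread unevenly over cells. The ratio of variance to mean over thinned cells, which is 1 for counting error alone, was 1.82 for Krt19, 1.56 for Krt7, 1.397 for Krt8 and 1.39 for Krt18. Among the 2624 genes averaging 0.1 thinned UMIs per cell or more, the median ratio was 1.05. Of these genes 3.47% exceeded Krt19, 5.22% Krt7, 8.08% Krt8 and 8.27% Krt18. The other keratins found in at least 5% of cells had ratios of 2.69 (Krt17), 2.67 (Krt14), 1.93 (Krt6a), 1.57 (Krt5) and 1.03 (Krt10), so unevenness was not particular to the simple keratins. The 1% of cells with most Krt19 held 24.0% of its UMIs, while for Krt18 this was 11.98%.

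Of the thinned cells, 58.0% had no UMI of any of the 4 genes, 29.9% had UMIs of 1 of them, 9.75% of 2, 2.22% of 3 and 0.136% of all 4. Krt18 alone was the most frequent state with 1795 cells, followed by Krt8 alone with 859, Krt7 alone with 821 and Krt19 alone with 492. The most frequent pair was Krt8 with Krt18, in 443 cells, and the least frequent was Krt7 with Krt19, in 44. At 1500 UMIs a gene with a level of about 1 molecule in several cells is often missed, so a cell without a UMI is not a cell without the transcript.

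To place the genes among the cells, the kept cells were clustered without any keratin gene among the features. This gave 8 clusters, numbered by size. Cluster 3 (2242 cells) was cycling-like, led by Ccna2, Ube2c and Nusap1, with 14 of 14 cycling markers raised. Cluster 4 (1945 cells) was mesenchymal-like, led by Grem1, Ccn5 and Vim, with 10 of 15 mesenchymal markers raised. The others met no naming rule and go by their leading genes: cluster 1 (3667 cells, Wfdc18, Ucp2 and Ccl9), cluster 2 (3430 cells, Krt7 and Sorbs2), cluster 5 (1645 cells, Ltf, Gabrp and Lcn2), cluster 6 (1202 cells, Ch25h, Ccl2 and Prl2c3), cluster 7 (673 cells, Zfpm2, Aff2 and Immp2l) and cluster 8 (121 cells, Ly6c1, Krt7 and Pate14). Cells of cluster 7 were shallow, with 1190 UMIs at the median and a median mitochondrial share of 10.3%, against medians of 1988.5 to 3767.5 UMIs elsewhere. The list for simple epithelium, from which the 4 keratins had been left out, had 1 of its 10 markers raised in clusters 8 and 6, 2 in cluster 5 and none among the leading genes of any cluster.

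**Figure D1:**
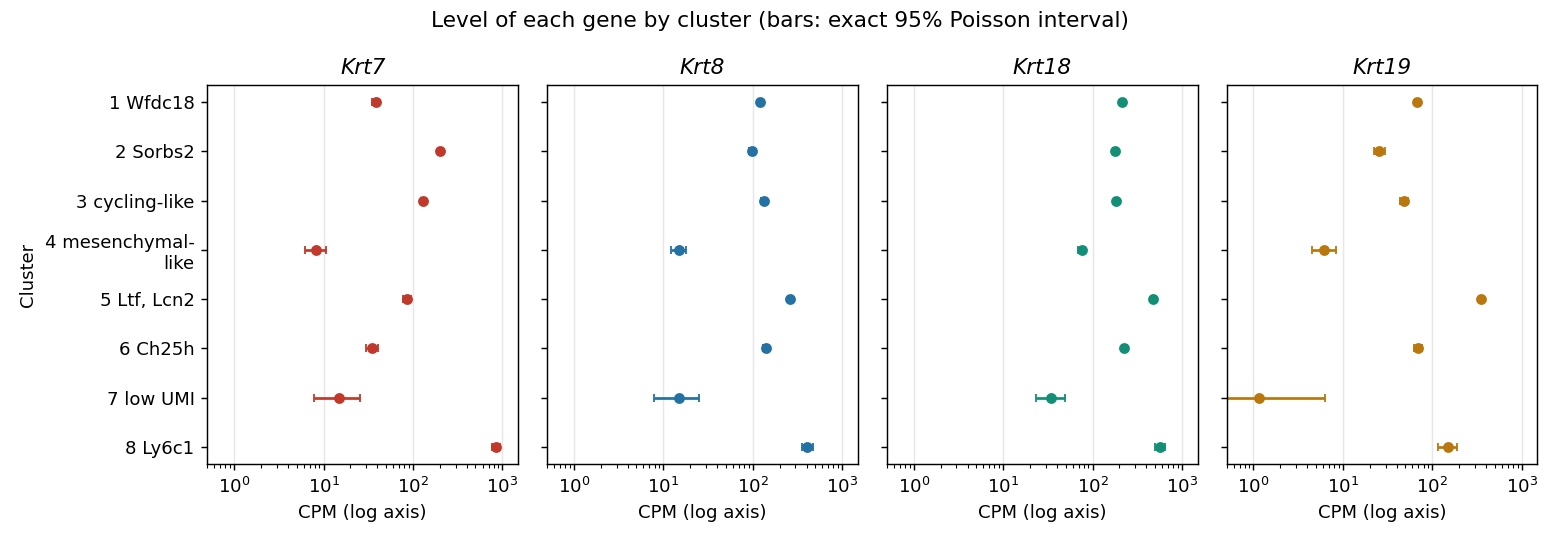
Level of Krt7, Krt8, Krt18 and Krt19 in CPM (log axis) in each of the 8 clusters, with exact 95% Poisson intervals. Cluster 8 is highest for Krt7, Krt8 and Krt18 and cluster 5 for Krt19, while clusters 4 and 7 are lowest for all 4 genes.

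Krt7, the type II keratin of ducts and transitional epithelium, differed widely between clusters. It reached 857 CPM (773 to 947) in cluster 8, 199.6 CPM (189.7 to 209.9) in cluster 2 and 131 CPM (123 to 139) in cycling-like cells. It stood at 85.7 CPM in cluster 5, 38.3 CPM in cluster 1, 35.2 CPM in cluster 6, 14.8 CPM in cluster 7 and 8.29 CPM (6.26 to 10.8) in mesenchymal-like cells. The neighbouring intervals of clusters 1 and 6, and of clusters 7 and 4, overlapped. The highest level was 103 times the lowest.

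Krt8, the type II partner of Krt18 in simple epithelium, stood at 409 CPM (352 to 473) in cluster 8 and 263 CPM (249 to 277) in cluster 5. Clusters 6, 3 and 1 followed with 142, 132 and 119.5 CPM, with neighbouring intervals that overlapped, and cluster 2 with 97.5 CPM. Clusters 7 and 4 were lowest, both at 14.8 CPM.

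Krt18, the type I partner, followed nearly the same order. It stood at 569 CPM (501 to 643) in cluster 8, 474 CPM (455 to 493) in cluster 5, 227 CPM in cluster 6, 216 CPM in cluster 1, 184 CPM in cycling-like cells and 180.2 CPM in cluster 2. The neighbouring intervals of clusters 6 and 1, and of clusters 3 and 2, overlapped. In mesenchymal-like cells it still stood at 76.0 CPM (69.5 to 82.8), and in cluster 7 at 34.3 CPM (23.1 to 48.9).

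Krt19, the smallest keratin, which lacks most of the tail domain, had another summit. It was highest in cluster 5 with 347 CPM (331 to 363), which held 49.8% of all Krt19 UMIs and 89 of the 96 cells with at least 5 of them. Cluster 8 followed with 148.4 CPM (115 to 189), clusters 6 and 1 with 69.1 and 68.3 CPM, whose intervals overlapped, cycling-like cells with 48.4 CPM and cluster 2 with 25.7 CPM. Mesenchymal-like cells stood at 6.22 CPM (4.48 to 8.41) and cluster 7 at 1.14 CPM from 1 UMI, with overlapping intervals.

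A gene was called different between 2 clusters where its levels differed 2-fold or more, the higher reached 10 CPM and the intervals lay apart. Krt7 was called in 24 of 28 pairs of clusters, Krt19 in 23 of the 27 pairs in which it reached 10 CPM, Krt18 in 21 and Krt8 in 18. The basal keratins Krt5 and Krt14 were called in 17 and 16 of the 28 pairs, close to Krt8. Over all genes 25.3% of the tested gene and pair combinations were called, and 24.5% over genes at 50 to 500 CPM in kept cells. Without the mesenchymal-like cluster and the low-UMI cluster 7, which were chosen for this after their values were seen, 15 pairs remained. Krt7 was called in 12 of them, Krt19 in 11, Krt18 in 8 and Krt8 in 6, where 6.48% of the combinations of genes at 50 to 500 CPM were called. Krt5 and Krt14 were each called in 5 of these 15 pairs. The clusters were made to differ in many genes, so these shares describe them and are no test.

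Krt8 and Krt18 kept nearly the same proportion to each other in clusters 1, 2, 5 and 6, where Krt18 ran from 180.2 to 474 CPM. The ratio of Krt8 to Krt18 UMIs was 0.552 (0.517 to 0.590) in cluster 1, 0.541 (0.494 to 0.592) in cluster 2, 0.555 (0.519 to 0.593) in cluster 5 and 0.626 (0.567 to 0.691) in cluster 6. It was higher in cycling-like cells, at 0.717 (0.663 to 0.776), and in cluster 8, at 0.719 (0.591 to 0.874). Mesenchymal-like cells stood apart with 0.195 (0.156 to 0.242), from 100 Krt8 and 513 Krt18 UMIs. Over the 8 clusters the log2(CPM + 1) levels of Krt8 and Krt18 had a Pearson correlation of 0.96, and over the 6 clusters without clusters 4 and 7 it was 0.97, as a description of clusters that come from 1 sample.

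**Figure D2:**
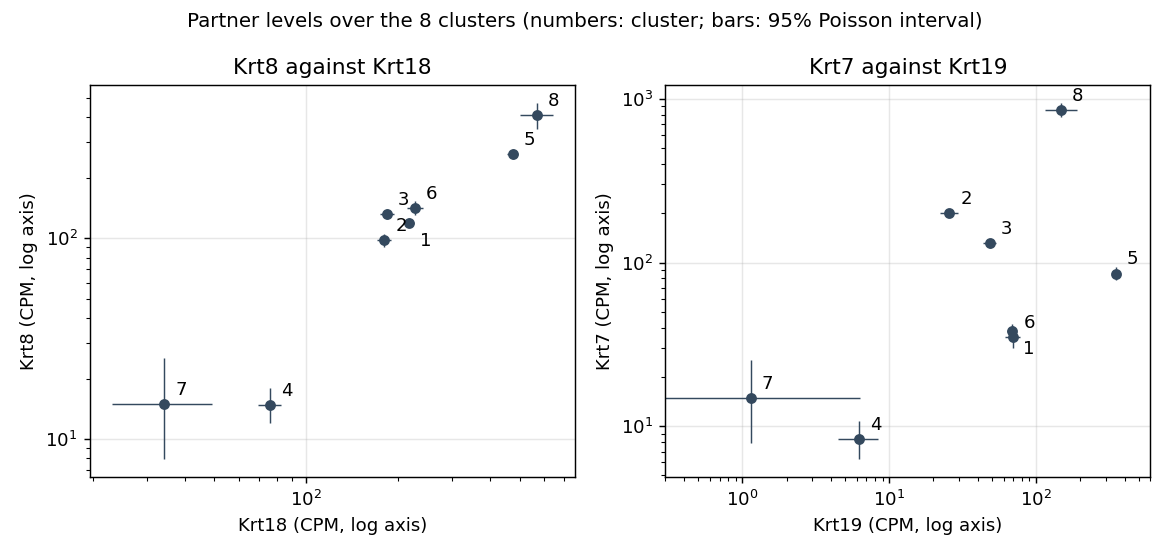
Levels of type II against type I partner over the 8 clusters, both in CPM on log axes, with 95% Poisson intervals and the cluster number beside each point. Krt8 and Krt18 rise together except for cluster 4, which lies below the line of the others, while Krt7 is high in clusters 2 and 8 and Krt19 in cluster 5.

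Krt8 and Krt18 also met in the same cells more often than their shares alone would give. Both were found in 706 of 13281 thinned cells, or 5.32% (4.94% to 5.71%), where the product of the shares is 3.22%, a ratio of 1.65 (1.53 to 1.77). Of Krt8 cells 38.2% (36.0% to 40.5%) held Krt18, against 20.7% of cells without Krt8. Of Krt18 cells 23.0% held Krt8, against 11.2% of cells without Krt18. Outside the mesenchymal-like cluster the ratio was 1.504 (1.397 to 1.616).

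The pairing was also seen within most clusters. The ratio was 1.39 (1.20 to 1.60) in cluster 1, 1.49 (1.22 to 1.81) in cluster 2, 1.63 (1.33 to 1.98) in cycling-like cells and 1.26 (1.12 to 1.42) in cluster 5. In cluster 6 it was 1.28 (0.995 to 1.63), with an interval that includes 1. In cluster 8, where Krt8 was found in 46.2% and Krt18 in 53.8% of 119 thinned cells, it was 0.980 (0.683 to 1.33), so no excess was detectable in these few cells. In mesenchymal-like cells the ratio was 2.92 (1.26 to 5.75) from 8 cells with both, and in cluster 7 it was 7.44 (0.188 to 40.8) from 1 cell.

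Over thinned cells, log1p UMIs of Krt8 and Krt18 had a Pearson correlation of 0.176, which was the highest for Krt8 among 2623 genes and the second highest for Krt18. Most cells held 0 or 1 UMI, and the cells share 1 sample and were thinned to 1 depth.

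For Krt7 and Krt19 no such excess was detected. Both were found in 112 thinned cells, 0.843% (0.695% to 1.01%), against a product of 0.942%, a ratio of 0.895 (0.738 to 1.08). Of Krt7 cells 7.88% held Krt19, against 8.91% of cells without Krt7. Outside the mesenchymal-like cluster the ratio was 0.779 (0.641 to 0.937), and 0.808 (0.668 to 0.968) with another random thinning. It was 1.044 (0.857 to 1.26) with at least 1000 genes and 2000 UMIs per cell and 1.002 (0.780 to 1.27) after thinning to 1000 UMIs, so its side of 1 depended on the cells used. Within clusters 1, 2, 3, 5, 6 and 8 it ran from 0.616 in cluster 1 to 1.30 in cycling-like cells, with intervals that all include 1, and clusters 4 and 7 held 1 and 0 cells with both. Their Pearson correlation over cells was 0.0068, and Krt19 ranked 1076 among 2623 genes for likeness to Krt7.

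The clusters differed in which of these genes prevailed. The ratio of Krt7 to Krt19 UMIs was 7.78 (6.70 to 9.07) in cluster 2, 5.77 (4.44 to 7.62) in cluster 8 and 2.70 (2.403 to 3.037) in cycling-like cells. It was 0.561 (0.499 to 0.631) in cluster 1, 0.509 (0.419 to 0.617) in cluster 6 and 0.247 (0.222 to 0.274) in cluster 5. The correlation of their log2(CPM + 1) levels was 0.63 over the 8 clusters and 0.09 over the 6 without clusters 4 and 7.

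Over all thinned cells, Krt19 instead went with Krt8 and Krt18. Krt8 with Krt19 had a ratio of joint share to product of 1.98 (1.77 to 2.20) and Krt18 with Krt19 of 1.78 (1.63 to 1.95). Outside the mesenchymal-like cluster these ratios were 1.72 (1.54 to 1.92) and 1.62 (1.48 to 1.77). They were not taken within clusters, so the part of cluster 5, high in Krt8, Krt18 and Krt19, was not tested. Of Krt19 cells 41.3% (38.5% to 44.2%) held Krt18. Krt7 with Krt8 stood at 1.33 (1.176 to 1.499) and Krt7 with Krt18 at 1.22 (1.11 to 1.34), and outside the mesenchymal-like cluster at 1.153 (1.018 to 1.30) and 1.11 (1.00 to 1.22).

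**Figure D3:**
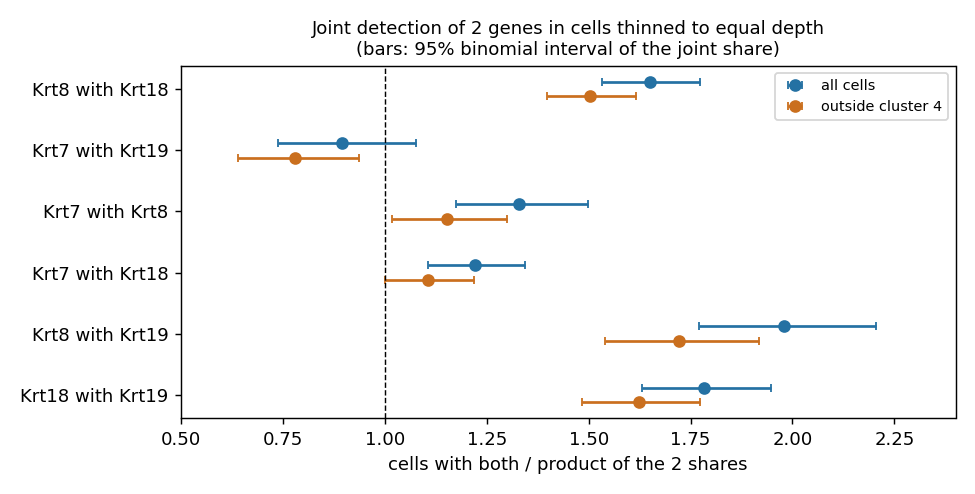
Share of thinned cells with UMIs of both genes, divided by the product of the shares of each, for the 6 pairs of the 4 genes, in all thinned cells and outside cluster 4, with 95% binomial intervals of the joint share. The 3 pairs among Krt8, Krt18 and Krt19 lie at 1.504 or above, and Krt7 with Krt19 lies below the dashed line at 1.

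Simple keratins were mostly found in cells that also held basal keratins. A Krt5 or Krt14 UMI was present in 84.9% (83.9% to 85.8%) of the 5575 thinned cells with a UMI of any of the 4 genes, and in 73.6% (72.6% to 74.6%) of cells without. By gene the share was 88.0% for Krt7, 87.0% for Krt8, 85.8% for Krt19 and 82.2% for Krt18. Outside the mesenchymal-like cluster the contrast was gone for the 4 genes pooled. The share was 87.0% (86.1% to 87.9%) in cells with and 87.8% (86.9% to 88.6%) in cells without a simple keratin. For Krt18 the contrast was reversed there, with 85.7% (84.4% to 86.9%) of cells with and 88.0% (87.3% to 88.7%) of cells without it. For Krt7, Krt8 and Krt19 the intervals of cells with and without the gene overlapped. Seen from the other side, 45.5% (44.5% to 46.4%) of the 10409 cells with Krt5 or Krt14 had a UMI of at least 1 of the 4 genes. For comparison, Krt5 or Krt14 was found in 24.7% of mesenchymal-like cells.

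With at least 2 UMIs required on both sides, the share of simple keratin cells with Krt5 or Krt14 was 58.7% (56.2% to 61.1%). This cut also finds Krt5 and Krt14 in fewer cells of any kind. The share in cells without a simple keratin was not taken at it, so the lower value does not show less overlap. The 841 cells with a simple keratin and neither Krt5 nor Krt14 came from every cluster, with 173 in cluster 5, 147 in the mesenchymal-like cluster, 121 in cluster 1, 116 in cluster 2 and 80 in cluster 8. Cluster 8 holds 0.811% of kept cells and gave 9.51% of these.

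In cells with at least 10 UMIs of Krt5, Krt14 and the 4 simple keratins together, the simple keratins took a median of 16.7% of these UMIs. Over 3798 cells the share ran from 0% at the 5th to 66.7% at the 95th percentile, so the makeup ran over a wide range without thinning. Medians were 11.8% in cycling-like cells, 12.5% in cluster 1, 16.7% in cluster 2, 20% in cluster 6 and 27.3% in cluster 5, where 25.9% of cells had 50% or more.

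Cluster 8 was the exception, with a median of 90.0% and quartiles of 84.6% and 93.1% in its 39 such cells. Of them 37 had 50% or more. With 10 Krt5 and 107 Krt14 UMIs in its 121 cells, a cell of this cluster could hardly reach the minimum of 10 without many simple keratin UMIs, so the filter in part sets these shares. Over all UMIs of the 6 genes, with no such minimum, the simple keratins took 88.3% in cluster 8, against 16.7% to 31.8% in the other clusters. Krt5 stood at 22.5 CPM and Krt14 at 241 CPM there, while Krt17 stood at 1082 CPM. Krt5 or Krt14 was found in 26.1% of its thinned cells, close to the share in mesenchymal-like cells, and Krt7 in 60.5% (51.1% to 69.3%).

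**Figure D4:**
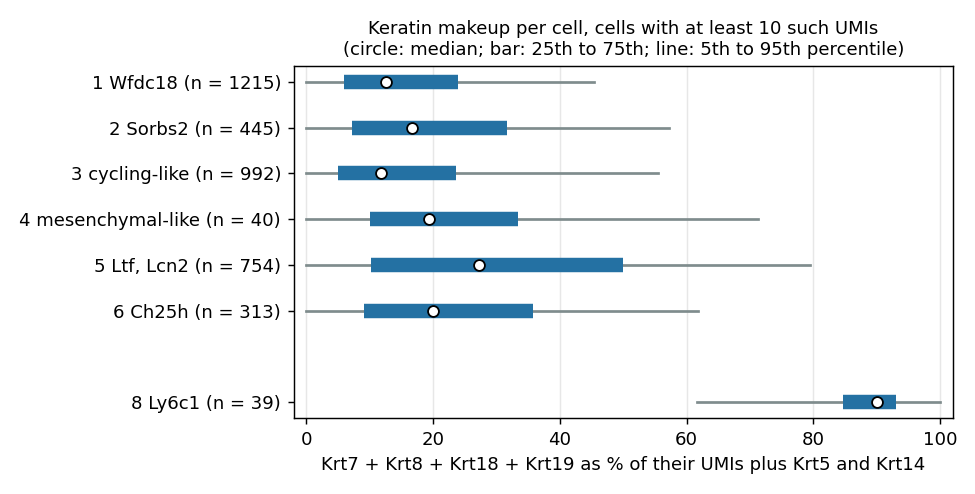
UMIs of Krt7, Krt8, Krt18 and Krt19 as a percentage of these plus Krt5 and Krt14 UMIs, per cell and by cluster, in cells with at least 10 such UMIs. The circle is the median, the bar spans the 25th to 75th and the line the 5th to 95th percentile. Cluster 8 has a median of 90.0%, and the other clusters shown have medians of 11.8% to 27.3%. Cluster 7 had no such cell.

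Mesenchymal-like cells held Krt18 but little of its partner. Relative to clusters 1, 2, 3, 5, 6 and 8 together, the level in mesenchymal-like cells was 31.3% for Krt18 (76.0 against 243 CPM) and 10.3% for Krt8 (14.8 against 144 CPM). Krt7 and Krt19 stood at 7.77% and 6.56%. Some other epithelial transcripts lay close to these. The adhesion molecule Epcam was at 6.35%, E-cadherin (Cdh1) at 7.97%, Krt5 at 6.97%, Krt6a at 6.63%, Cldn7 at 8.31% and Cldn4 at 8.43%. Krt14 at 16.6% and Krt17 at 18.3% lay between them and Krt18. Krt10, Krt16 and Krt80 stood at 22.95, 9.62 and 6.51 CPM in mesenchymal-like cells. Over all kept cells they stood at 38.4, 23.7 and 11.7 CPM, so a high relative level was not particular to Krt18. Not every epithelial adhesion and polarity gene was this low. Tjp1 stood at 94.2 CPM in mesenchymal-like cells and at 115 CPM over all kept cells. The part of free RNA in these levels was not tested.

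Within this cluster, a Krt5 or Krt14 UMI was found in 24.6% (18.4% to 31.6%) of the 175 thinned cells with Krt18, the same share as in the cluster as a whole, but in 21 of the 30 cells with Krt8, or 70.0% (50.6% to 85.3%). Among the mesenchymal-like cells 746 had no UMI of Krt5, Krt14, Krt17 or Epcam, a split chosen after these values were seen and which did not use the 4 genes. In these, Krt18 stood at 49.9 CPM (41.1 to 60.0) from 113 UMIs in 96 cells, Krt8 at 0.883 CPM (0.107 to 3.19) from 2 UMIs, and Krt19 at 1.77 CPM from 4 UMIs. Krt7 had 0 UMIs in them, which allows up to 1.33 CPM (3 counts). The only other keratin above 5 CPM in these cells was the type I gene Krt10, a keratin of suprabasal skin, with 24.3 CPM (18.3 to 31.6).

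Doublets, barcodes that hold 2 cells, could not be called reliably. After removal of the 10% of cells that scored highest as doublets, Krt18 in mesenchymal-like cells stood at 67.3 CPM and Krt8 at 5.26 CPM, Krt7 at 3.68 CPM and Krt19 at 3.50 CPM. Krt8, Krt7 and Krt19 thus moved by over 1.5 times with the cells removed. Krt18 moved by less, but it too fell below its interval of 69.5 to 82.8 CPM in all mesenchymal-like cells.

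**Figure D5:**
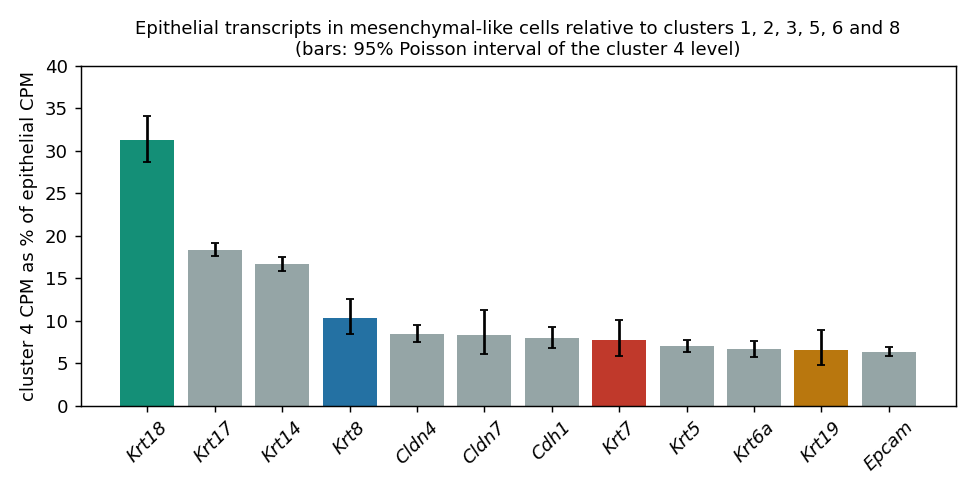
Level of 12 epithelial transcripts in cluster 4 as a percentage of their level in clusters 1, 2, 3, 5, 6 and 8 together, with 95% Poisson intervals of the cluster 4 level. Krt18 stands at 31.3%, Krt17 and Krt14 at 18.3% and 16.6%, Krt8 at 10.3% and the other 8 genes between 6.35% and 8.43%.

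The levels moved with the number of UMIs per cell. From the lowest to the highest quartile of cells by UMIs, with medians of 1565.5 and 4436.5 UMIs, Krt8 went from 71.9 to 151 CPM, Krt18 from 158 to 250.3 CPM and Krt19 from 49.0 to 86.7 CPM. Krt7 went the other way, from 154 to 70.5 CPM. Cluster 2, high in Krt7, had a median of 1988.5 UMIs, and within it Krt7 was 201 CPM in cells below and 198.8 CPM in cells above the cluster's median. Within cycling-like cells Krt7 was 179 CPM below and 106 CPM above their median, and within cluster 5 it was 128 and 62.3 CPM. Cluster 1 went the same way, from 50.8 to 30.3 CPM. Cluster 8 went from 684 (566 to 819) to 966 CPM (853 to 1090), and mesenchymal-like cells went from 2.71 to 11.8 CPM, both upward. In clusters 6 and 7 the intervals of both groups overlapped. The part of depth in the differences between clusters was not tested.

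Few genes resembled the simple keratins cell by cell. By Pearson correlation of log1p thinned UMIs over 13281 cells, no gene reached 0.2 for Krt7 or Krt8. For Krt19, the glutathione transferase gene Gsto1 stood at 0.26, Lcn2, which encodes the iron-carrier binding protein lipocalin-2, at 0.23 and Ly6d, a surface antigen of stratified epithelium, at 0.22. For Krt18 it was Anxa1, which encodes the membrane-binding protein annexin A1, at 0.215. All of these genes were highest in cluster 5. In counts this sparse such values are weak, and they are given as a description.

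Other keratins and companions of the filament system were read from fixed lists. Of a further list of 3 keratins, Krt80 was at 11.7 CPM, Krt20, a keratin of intestinal and urothelial cells, at 0.968 CPM and Krt23 at 0.418 CPM. Of 8 suprabasal and stress keratins, 3 reached 10 CPM (Krt6a, Krt10 at 38.4 CPM and Krt16 at 23.7 CPM), while Krt13 and Krt4, the pair of differentiated esophageal epithelium, stood at 6.38 and 0.726 CPM, Krt4 being named after its value was seen. Both were highest in cluster 5, with 48.0 and 5.19 CPM, where Krt6a reached 904 CPM too. Of 16 epithelial adhesion and polarity genes, 15 reached 10 CPM, led by Spint2 (1321 CPM), Epcam (1086 CPM), Cldn4 (449.8 CPM) and Cdh1 (271 CPM).

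Genes of columnar lineages were mostly near 0. The transcription factor genes Sox9 (337 CPM), Foxa1 (28.9 CPM) and Gata6 (14.96 CPM) were highest among the 18 listed, and 6 had 0 UMIs: Cdx1, Hnf4a, Tff1, Tff2, Tff3 and Muc6. A count of 0 allows up to 0.0660 CPM (3 counts). These 6 genes were named after their values were seen. Sox9, Foxa1 and Gata6 were each highest in a cluster other than cluster 8, where Sox9 stood at 126 CPM against 488 CPM in cluster 1. Of 12 keratin linker genes, which tie the filaments to desmosomes and hemidesmosomes, 10 reached 10 CPM, led by Dst (378 CPM), Jup (301 CPM) and Dsp (238 CPM). For comparison, 8462 of 20908 genes with a UMI reached 10 CPM.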

How the data were processed

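Unique molecular identifier (UMI) counts per gene and cell barcode were deposited as raw whole numbers, made with CellRanger, whose version is 8.0.1 per the file headers. The submitters' processing notes name mm10 and Scanpy 1.8.2, and what annotation was used is not given in the sources used here. By the labels there are 3 libraries of the PC line (gene expression, barcodes and scar), but the deposited counts name none of them and were taken as 1 pooled sample. Barcode and scar sequences, and the PCN line, were not analysed here. The lowest deposited barcode held 500 UMIs.

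Barcodes with at least 500 genes, 1000 UMIs and at most 20% mitochondrial UMIs were kept. Cells were clustered with Scanpy 1.11.5 (2000 variable genes, 30 components, 15 neighbours, Leiden resolution 0.6) after 55 genes, the keratins, GFP and Scar, were held out. Shares and joint detection used cells thinned to 1500 UMIs. The interval of a ratio of joint share to product treats the product as fixed. Scrublet called 1 of 14925 cells, which is no working call, so no doublets were removed. The calling step was tested on simulated data.

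The 4 genes and all lists were chosen with earlier results of these data known. Named were the 4 genes, Krt5, Krt14, keratins found in at least 5% of cells, up to 5 genes with a correlation of at least 0.2, up to 4 of the highest of each list and up to 3 leading genes of each cluster. Alternatives changed the cell filter, the denominator, thinning, clustering and the calling ratio. Those without cluster 8, without clusters 4 and 7, without epithelial UMIs or high doublet scores in mesenchymal-like cells, and with another thinning outside the mesenchymal-like cluster were chosen after seeing the data.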

Additional observations from a re-analysis of the deposited data

Results flagged for a closer look

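All 4 genes were also found in the 3191 barcodes that the cell filter left out, which had a median of 696 UMIs and entered no value of the report for kept cells. Krt18 stood at 57.5 CPM (48.1 to 68.3) there, Krt7 at 32.1 CPM (25.1 to 40.3), Krt8 at 18.9 CPM (13.7 to 25.4) and Krt19 at 10.1 CPM (6.40 to 15.2). Each level lies above 1.32 CPM, the limit that a count of 0 allows in these barcodes, and below the level in kept cells.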

How the results depend on the processing

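Levels, shares and ratios were held to the main counting interval, and shares of cluster pairs called to within 1.5 times the main share. By these rules 76 values that answer a comparison stayed and 26 moved. For 3 of the 76, both joint ratios and the share with Krt5 or Krt14 under the lower cell filter, this was fixed in advance, because thinning to 1500 UMIs leaves out the added barcodes. The joint ratio of Krt7 with Krt19 stayed within its interval but crossed 1, at 1.044 with at least 1000 genes and 2000 UMIs and 1.002 after thinning to 1000 UMIs, and the order of their levels turned under the first of these. With at least 1000 genes and 2000 UMIs, Krt18 stood at 221.3 CPM, Krt8 at 128.5, Krt19 at 83.9 and Krt7 at 82.8. With at least 200 genes and 500 UMIs, Krt18 stood at 207.3 CPM, Krt8 at 117.6 and Krt19 at 76.75. Without GFP and Scar UMIs in the total, Krt18 stood at 220.3 and Krt8 at 125.6 CPM, and without cluster 8 Krt7 stood at 82.7 CPM. In mesenchymal-like cells without Krt5, Krt14, Krt17 and Epcam UMIs the levels were 49.9 CPM for Krt18, 0.883 for Krt8, 0 for Krt7 and 1.77 for Krt19, and without high doublet scores 67.3, 5.26, 3.68 and 3.50. At a calling ratio of 3, 35.7% of cluster pairs were called for Krt18, and without clusters 4 and 7, 40% for Krt8. The joint ratio of Krt8 with Krt18 was 1.504 outside the mesenchymal-like cluster, 1.47 there with another thinning and 1.85 after thinning to 1000 UMIs. The share of simple keratin cells with Krt5 or Krt14 was 58.7% at 2 UMIs, 76.55% after thinning to 1000 UMIs and 86.1% without cluster 8. Where a value moved, the cause was not tested. No paired analysis was possible because the matrix is 1 sample.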
